A study of Mus musculus with 4 samples.

Results

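The transcriptome of β-cells from 11-week-old (11w) Tyk2-/- mice was compared with that of β-cells from 11w Tyk2+/+ mice, on 1 array per genotype. All 65956 features of the array were used, of which 30638 named 1 gene. Where several features named a gene, the one with the highest mean signal over the 4 arrays of the series represented it, which left 30176 genes on 2 of the 4 arrays. The other 2 arrays, of 6-week-old (6w) Tyk2-/- and 6w Tyk2+/+ β-cells, are set beside them for many of the genes described. Genes given at 11w alone can have the opposite order of genotypes at 6w.

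All 4 arrays hold RNA of female NOD mice, a strain that develops autoimmune type 1 diabetes (T1D), and each array holds 1 pool of mice: Tyk2-/- and Tyk2+/+ at 11w, and the same genotypes at 6w. The Tyk2-/- mice lack the gene in every cell of the body, not only in β-cells. Their null allele was made in another inbred strain and bred onto C57BL/6J and then NOD, and 1 tested marker on chromosome 9, the chromosome of Tyk2, was not of NOD origin. Live islet cells were sorted by the zinc dye FluoZin-3-AM and the mitochondrial dye TMRE, and cells with the leukocyte protein CD45 were left out. With 1 array per condition no spread between samples can be estimated, so every difference below describes these 2 pools and carries no error and no p-value. In such bulk RNA, fewer cells of a type cannot be told apart from less RNA per cell.

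TYK2 is a tyrosine kinase of the Janus family. It is bound to a chain of the receptors for type I interferons (IFN), IL-12, IL-23 and cytokines of the IL-10 and IL-6 families, and it phosphorylates STAT proteins when the receptor is engaged. In islets of NOD mice, IFN made during infiltration is known to induce MHC class I, chemokines and IFN-stimulated genes (ISGs), which make β-cells visible to CD8+ T cells.

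A gene was called higher when its ratio of 11w Tyk2-/- to 11w Tyk2+/+ signal was above 1.5 and its Z score above 2, and lower when the ratio was below 0.66 and the Z score below -2. The Z score scales a difference by the SD found in a window of features with similar mean signal. In 11w Tyk2-/- β-cells 456 of 30176 genes (1.51%) were called higher and 406 (1.35%) lower, together 2.86%, and the median log2 difference of all genes was 0.01. Because the Z score uses features of like signal, calls were made at every brightness, and the SD of the differences was 0.23 for genes with a mean signal of at most 15 and 1.14 for genes between 200 and 1000. Of the 862 calls, 432 (233 higher and 199 lower) were of genes at or under the dim level on their brighter array. The dim level of an array is the 95th percentile of the signals of 1576 odorant, pheromone and taste receptor genes, which islet cells are not expected to use, and it was 26.5 in Tyk2-/- and 25.7 in Tyk2+/+ β-cells at 11w (22.9 in Tyk2-/- and 21.3 in Tyk2+/+ at 6w). Of these receptor genes themselves, 45 were called higher and 52 lower (6.16%), a larger share than of all genes. Above the dim level, and without predicted genes and small RNAs, 112 of 6379 genes were called higher and 112 lower. At the other end of the scale, 92 of the 165 genes with a signal of at least 100000 on both arrays differed by 0.07 on the log2 scale, the difference between the highest signals of the 2 arrays (970450 in Tyk2-/- and 923700 in Tyk2+/+ at 11w), to within 0.001. Such genes cannot show a change.

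**Figure D1:**
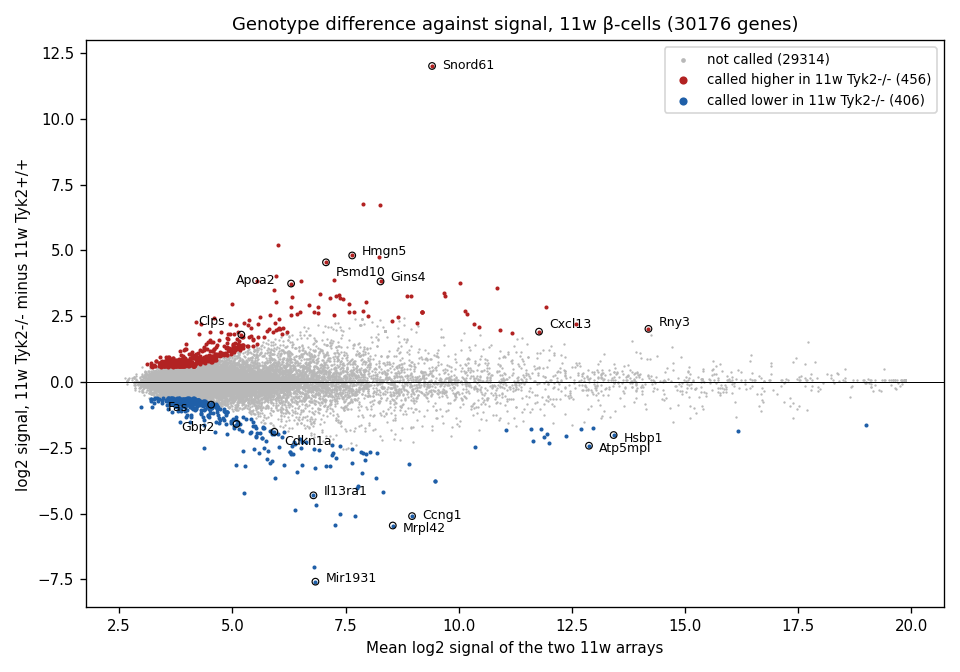
Each point is a gene, with its mean log2 signal over both 11w arrays on the horizontal axis and the log2 difference, 11w Tyk2-/- minus 11w Tyk2+/+, on the vertical axis. The 456 genes called higher are red, the 406 called lower are blue, and the cloud of points is narrow at the lowest signals and wider between signals of 200 and 1000.

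For Tyk2 the signals were 17.1 in Tyk2-/- and 18.8 in Tyk2+/+ β-cells at 11w, against 16.8 in Tyk2-/- and 15.5 in Tyk2+/+ β-cells at 6w. All 4 values lie under the dim level of their array and the genotypes are in opposite order at the 2 ages, with log2 differences of -0.13 at 11w and 0.11 at 6w. The sources used here do not say whether the feature lies in the deleted part of the gene, so Tyk2 does not check the labels. The labelled cell type was checked by its markers. Ins2, insulin, had 98683 in Tyk2-/- and 93930 in Tyk2+/+ β-cells at 11w, and Iapp, the amyloid peptide released with insulin, stood at the highest signal of every array. Slc30a8, the zinc transporter of insulin granules, had 14051 in Tyk2-/- and 11358 in Tyk2+/+ β-cells at 11w. Gcg, Sst and Ppy, the hormones of α-, δ- and PP-cells, were also at the highest signal of all 4 arrays, so their levels cannot be compared. None of 12 α-, δ- and PP-cell genes was called. Their median of 0.07 equals the difference of the highest signals, as does the difference of Ins2. Ttr, transthyretin, had 41983 in Tyk2-/- and 28507 in Tyk2+/+ β-cells at 11w. Pdx1 and Mafa, transcription factors that define β-cells, were under the dim level on both 11w arrays.

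The interferon-induced GTPases of the guanylate-binding protein (GBP) and immunity-related GTPase (IRG) families attack vacuoles of intracellular pathogens and are classical targets of IFN. All 11 measured members were brighter on both 11w arrays than on either 6w array, an order found in 32.3% of all genes (20.8% of those above the dim level), and 8 of the 11 were dimmer in 11w Tyk2-/- than in 11w Tyk2+/+ β-cells. Their summed signal was 366 in Tyk2-/- and 477 in Tyk2+/+ β-cells at 11w, against 239 in Tyk2-/- and 241 in Tyk2+/+ β-cells at 6w. The median log2 difference of the list was -0.26 at 11w, beside 0.01 for all genes, and 0.00 at 6w. Only Gbp2 was called, with 19.7 in Tyk2-/- and 59.3 in Tyk2+/+ β-cells at 11w, against 14.5 in Tyk2-/- and 18.1 in Tyk2+/+ β-cells at 6w. Thus the 11w Tyk2+/+ array stood apart from the other 3, and the Tyk2-/- signal was under the dim level. The log2 difference of Gbp2 was -1.59 (Z score -2.78), and set against the dim level Gbp2 was at least 2.23-fold lower.

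Gbp7 had 40.1 in Tyk2-/- and 76.5 in Tyk2+/+ β-cells at 11w, against 31.2 in Tyk2-/- and 31.5 in Tyk2+/+ β-cells at 6w, a log2 difference of -0.93 that was not called. Gbp4 had 46.3 in Tyk2-/- and 63.3 in Tyk2+/+ β-cells at 11w (-0.45), and Gbp8 had 32.8 in Tyk2-/- and 43.2 in Tyk2+/+ β-cells at 11w (-0.40). In each of these, both 11w signals lay above both 6w signals and the Tyk2+/+ array was the brightest of the 4. Gbp3 (-0.26), Irgm1 (-0.33), Gbp9 (-0.15) and Gbp11 (-0.01) differed less. The IRG members Igtp (57.6 in Tyk2-/- and 53.8 in Tyk2+/+ β-cells at 11w), Iigp1 (35.3 in Tyk2-/- and 34.0 in Tyk2+/+ at 11w) and Irgm2 (23.5 in Tyk2-/- and 20.7 in Tyk2+/+ at 11w) had log2 differences of 0.10, 0.06 and 0.18.

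**Figure D2:**
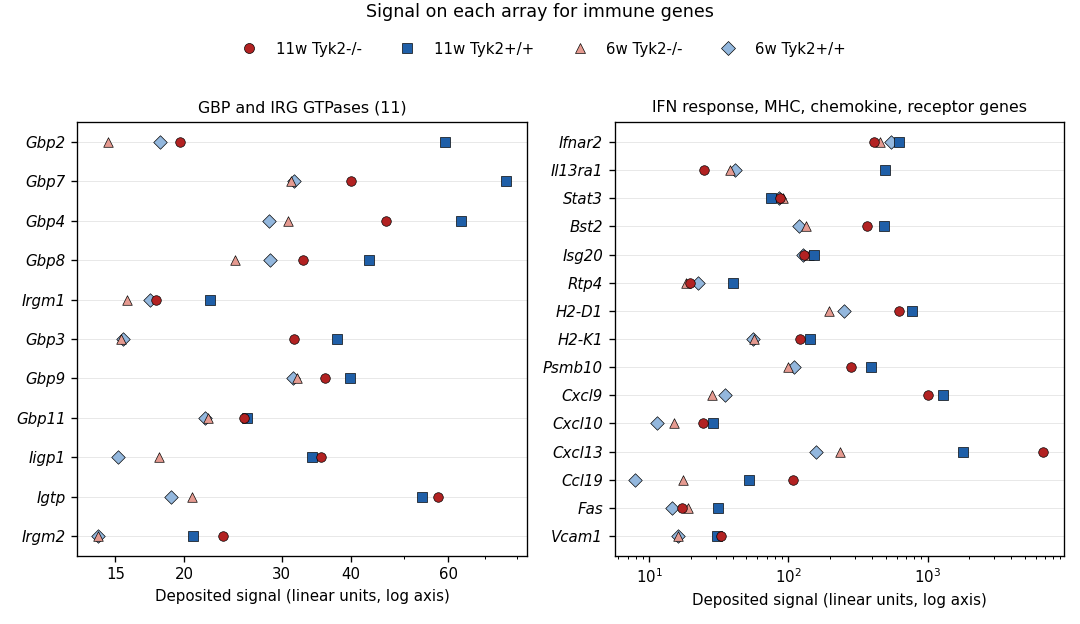
Signal of each gene on each of the 4 arrays (log axis), with the 11 GBP and IRG genes on the left, ordered by their log2 difference at 11w, and 15 other immune genes on the right. For Gbp2, Gbp7 and Gbp4 the 11w Tyk2+/+ signal (blue square) is the highest of the 4, and for Cxcl13 and Ccl19 the 11w Tyk2-/- signal (red circle) is.

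Promoters were searched for an element that STAT and IRF complexes bind after IFN, written GAAANNGAAA and read on both strands from 250 bases before to 50 after the transcript start (RefSeq, GRCm38.p6). It was found in 3.99% of 27025 genes with a promoter in the table, in 14 of 33 ISGs (42.4%), 3 of 16 genes of MHC class I and antigen processing (18.8%), 3 of 22 chemokines (13.6%) and all 6 GBP and IRG genes that have an entry there. Among genes called at 11w it was found in 9 of 202 called higher (4.46%) and 10 of 183 called lower (5.46%), shares near that of all genes. The promoters of the GBP genes with the 2 largest differences and of Gbp3 are shown with the element in capitals. It starts 59 bases before the transcript start of Gbp2 and 53 before that of Gbp7, and in Gbp3 a pair of overlapping matches forms 1 run of capitals. All lie on the + strand at chr3:142620413-142620712 (Gbp2), chr3:142530086-142530385 (Gbp7) and chr3:142559794-142560093 (Gbp3), and the capitals read as the reverse complement of the element. A further Gbp3 promoter, at chr3:142560106-142560405, held 0 matches and is not printed. A gene was counted as holding the element when any of its promoters did. A match is a description of the letters and does not show binding.
Gbp2: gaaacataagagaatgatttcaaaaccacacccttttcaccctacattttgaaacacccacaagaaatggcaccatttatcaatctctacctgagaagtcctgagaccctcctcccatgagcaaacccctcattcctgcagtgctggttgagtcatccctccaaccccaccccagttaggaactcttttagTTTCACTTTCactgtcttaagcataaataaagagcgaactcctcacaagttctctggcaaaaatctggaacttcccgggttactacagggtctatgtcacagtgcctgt
Gbp7: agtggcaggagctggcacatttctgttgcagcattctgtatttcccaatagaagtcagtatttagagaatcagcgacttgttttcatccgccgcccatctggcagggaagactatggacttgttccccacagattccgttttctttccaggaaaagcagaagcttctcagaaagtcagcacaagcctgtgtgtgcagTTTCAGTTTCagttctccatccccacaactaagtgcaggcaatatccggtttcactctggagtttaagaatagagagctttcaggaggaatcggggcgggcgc
Gbp3: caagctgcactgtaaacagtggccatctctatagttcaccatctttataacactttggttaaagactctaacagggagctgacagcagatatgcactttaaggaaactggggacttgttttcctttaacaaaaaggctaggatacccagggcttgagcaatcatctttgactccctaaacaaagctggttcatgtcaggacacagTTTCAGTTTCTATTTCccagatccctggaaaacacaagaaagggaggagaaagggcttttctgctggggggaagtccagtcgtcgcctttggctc

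Of 28 measured receptors and components that use TYK2 or act in the JAK-STAT pathway, 1 was called lower and none higher, with a median of 0.06. It was Il13ra1, a chain of the IL-13 and IL-4 receptor that can associate with TYK2, with 24.9 in Tyk2-/- and 493 in Tyk2+/+ β-cells at 11w, against 38.1 in Tyk2-/- and 41.1 in Tyk2+/+ β-cells at 6w. The 11w Tyk2+/+ array alone was high, and Il13ra1 was at least 18.6-fold lower against the dim level. Ifnar2, the signalling chain of the type I IFN receptor, had 411 in Tyk2-/- and 624 in Tyk2+/+ β-cells at 11w, against 453 in Tyk2-/- and 547 in Tyk2+/+ β-cells at 6w (-0.60, not called). Stat3 (0.21), Jak1 (-0.24) and the shared IL-6 receptor chain Il6st (0.23) were above the dim level and not called. Among 14 cytokines that signal through TYK2, Il27 was called higher and Il6 lower, both under the dim level on both arrays. Ifnb1, IFN-β, had 30.3 in Tyk2-/- and 44.8 in Tyk2+/+ β-cells at 11w, against 27.5 in Tyk2-/- and 24.3 in Tyk2+/+ β-cells at 6w (-0.56). Ifna1 had 14.0 in Tyk2-/- and 17.5 in Tyk2+/+ β-cells at 11w (-0.32), and neither was called.

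Of 45 type I ISGs other than the GTPases, 2 were called higher and 1 lower, 22 had positive and 23 negative differences, and the median was -0.01. Only 18 were above the dim level, with a median of -0.17. Rtp4, a chaperone of receptors that is induced by IFN, was called lower, with 19.6 in Tyk2-/- and 40.3 in Tyk2+/+ β-cells at 11w (18.3 in Tyk2-/- and 22.4 in Tyk2+/+ at 6w), at least 1.52-fold lower against the dim level. Samd9l, an antiviral factor, was called higher (at least 1.64-fold), with 42.3 in Tyk2-/- and 20.6 in Tyk2+/+ β-cells at 11w, but its 6w signals were 25.1 in Tyk2-/- and 80.2 in Tyk2+/+ β-cells, so 6w Tyk2+/+ was the highest of the 4. The Samd9l call was lost with a narrower window and after quantile normalization. Ifit3b was called higher at signals under the dim level on both arrays. The 5 brightest ISGs were not called, and their differences had both signs. Bst2, tetherin, which holds budding virions at the cell surface, had 370 in Tyk2-/- and 486 in Tyk2+/+ β-cells at 11w, against 133 in Tyk2-/- and 120 in Tyk2+/+ β-cells at 6w (-0.39). Isg20, an exonuclease, had 130 in Tyk2-/- and 153 in Tyk2+/+ β-cells at 11w (-0.24). Trim25 had 42.4 in Tyk2-/- and 71.5 in Tyk2+/+ β-cells at 11w (-0.75), while Ifih1, the RNA sensor MDA5, had 75.4 in Tyk2-/- and 48.1 in Tyk2+/+ β-cells at 11w (0.65) and Lgals3bp had 82.6 in Tyk2-/- and 76.5 in Tyk2+/+ β-cells at 11w (0.11).

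Genes of antigen presentation did not pass the criteria in either direction. None of 18 genes of MHC class I and antigen processing was called (median -0.03). H2-D1 had 625 in Tyk2-/- and 768 in Tyk2+/+ β-cells at 11w, against 195 in Tyk2-/- and 250 in Tyk2+/+ β-cells at 6w (-0.30). For H2-K1 the signals were 122 in Tyk2-/- and 142 in Tyk2+/+ β-cells at 11w (-0.22), and for Psmb10, a subunit of the immunoproteasome, 284 in Tyk2-/- and 392 in Tyk2+/+ β-cells at 11w (-0.47). B2m, the light chain, had 192540 in Tyk2-/- and 183270 in Tyk2+/+ β-cells at 11w, a difference equal to that of the highest signals. None of 10 MHC class II genes was called. Their median was 0.13, but -0.30 for the 4 above the dim level. All 10 were brighter on both 11w arrays than on either 6w array. That order was found in 32.3% of all genes, in 20.8% of those above the dim level and in 38.3% of the rest. H2-Aa (46.0 in Tyk2-/- and 61.3 in Tyk2+/+ at 11w) and H2-Ab1 (284 in Tyk2-/- and 264 in Tyk2+/+ at 11w) differed in opposite directions, by -0.41 and 0.11.

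Chemokines showed 1 call in each direction among 31 (median -0.03, and 0.17 for the 11 above the dim level). Cxcl13, which draws B cells through CXCR5, had 6795 in Tyk2-/- and 1804 in Tyk2+/+ β-cells at 11w, against 234 in Tyk2-/- and 158 in Tyk2+/+ β-cells at 6w. Both 11w arrays were above both 6w arrays, and Cxcl13 rose by 1.91 in 11w Tyk2-/- β-cells (Z score 2.22), a call that was lost with a narrower and with a wider window. Ccl19, a ligand of CCR7 that guides lymphocytes and dendritic cells, had 108 in Tyk2-/- and 52.1 in Tyk2+/+ β-cells at 11w, against 17.5 in Tyk2-/- and 7.92 in Tyk2+/+ β-cells at 6w (1.05, not called). Glycam1, a mucin made by high endothelial venules, had 893 in Tyk2-/- and 492 in Tyk2+/+ β-cells at 11w, against 94.9 in Tyk2-/- and 80.4 in Tyk2+/+ β-cells at 6w (0.86, not called). Each of these 3 was highest in 11w Tyk2-/- and next in 11w Tyk2+/+ β-cells, but only Cxcl13 was called, and Madcam1, a vascular addressin, was nearly equal at 11w (31.9 in Tyk2-/- and 33.5 in Tyk2+/+ β-cells). Of the CXCR3 ligands, which IFN induces, none was called. Cxcl9 had 1008 in Tyk2-/- and 1299 in Tyk2+/+ β-cells at 11w, against 28.1 in Tyk2-/- and 35.1 in Tyk2+/+ β-cells at 6w (-0.37), and Cxcl10 had 24.4 in Tyk2-/- and 28.7 in Tyk2+/+ β-cells at 11w (-0.24). The third, Cxcl11, was under the dim level on both 11w arrays, with 14.6 in Tyk2-/- and 12.6 in Tyk2+/+ β-cells (0.21). Ccl7, a monocyte chemoattractant, was called lower, with 16.6 in Tyk2-/- and 31.1 in Tyk2+/+ β-cells at 11w, at least 1.17-fold against the dim level. The Ccl7 call was lost with 1 SD over all features, with 16 added to each signal and with a 2-fold ratio alone.

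Among 32 death receptors, BCL2 family members and caspases, Fas alone was called, against 2.86% of all genes. Fas, the receptor through which T cells can kill β-cells, had 17.2 in Tyk2-/- and 31.2 in Tyk2+/+ β-cells at 11w, against 19.0 in Tyk2-/- and 14.6 in Tyk2+/+ β-cells at 6w. It fell by 0.86 (Z score -2.30). The 11w Tyk2+/+ signal was the only one above the dim level, and against that level the fall was at least 1.17-fold. The Fas call was lost with 1 SD over all features, with 16 added to each signal and with a 2-fold ratio alone. Of 29 NF-κB feedback, adhesion and checkpoint genes, only Tnfaip3, whose product A20 restrains NF-κB, was called (lower), at signals under the dim level on both arrays. Vcam1, an adhesion molecule, had 32.7 in Tyk2-/- and 30.5 in Tyk2+/+ β-cells at 11w (0.10).

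None of the 21 autoantigens and granule genes was called, and their median was 0.03. Cpe, which trims proinsulin intermediates, had 71891 in Tyk2-/- and 154390 in Tyk2+/+ β-cells at 11w, against 169880 in Tyk2-/- and 172470 in Tyk2+/+ β-cells at 6w, so the 11w Tyk2-/- array alone was low (-1.10). G6pc2, the autoantigen IGRP, had 189 in Tyk2-/- and 87.5 in Tyk2+/+ β-cells at 11w, against 95.4 in Tyk2-/- and 605 in Tyk2+/+ β-cells at 6w (1.11). Its 11w values lie within or near the 6w range, and the genotypes are in the opposite order at 6w. Ptprn had 67.0 in Tyk2-/- and 79.7 in Tyk2+/+ β-cells at 11w (-0.25), and Gad2 was under the dim level on both arrays (0.09).

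Mature β-cell genes had 1 call among 31 (median 0.05). Ffar1, the receptor through which fatty acids enhance insulin secretion, was called higher, with 52.4 in Tyk2-/- and 19.8 in Tyk2+/+ β-cells at 11w (20.4 in Tyk2-/- and 35.9 in Tyk2+/+ at 6w), at least 2.04-fold. Kcnk16, a potassium channel of islets, had 324 in Tyk2-/- and 891 in Tyk2+/+ β-cells at 11w, against 831 in Tyk2-/- and 1368 in Tyk2+/+ β-cells at 6w (-1.46), and Gpr119, a lipid receptor, had 153 in Tyk2-/- and 359 in Tyk2+/+ β-cells at 11w (-1.23). Neither was called, and for both the 11w Tyk2-/- signal was the lowest of the 4. Slc2a2, the glucose transporter GLUT2, had 33.6 in Tyk2-/- and 21.7 in Tyk2+/+ β-cells at 11w (0.63). Of 22 islet transcription factors, only Mafa was called (higher), at signals under the dim level on both arrays. Isl1 had 366 in Tyk2-/- and 228 in Tyk2+/+ β-cells at 11w (0.69), while St18 and Pax6 were nearly equal (-0.01 and -0.06). None of 17 dedifferentiation and disallowed genes was called (median 0.10).

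**Figure D3:**
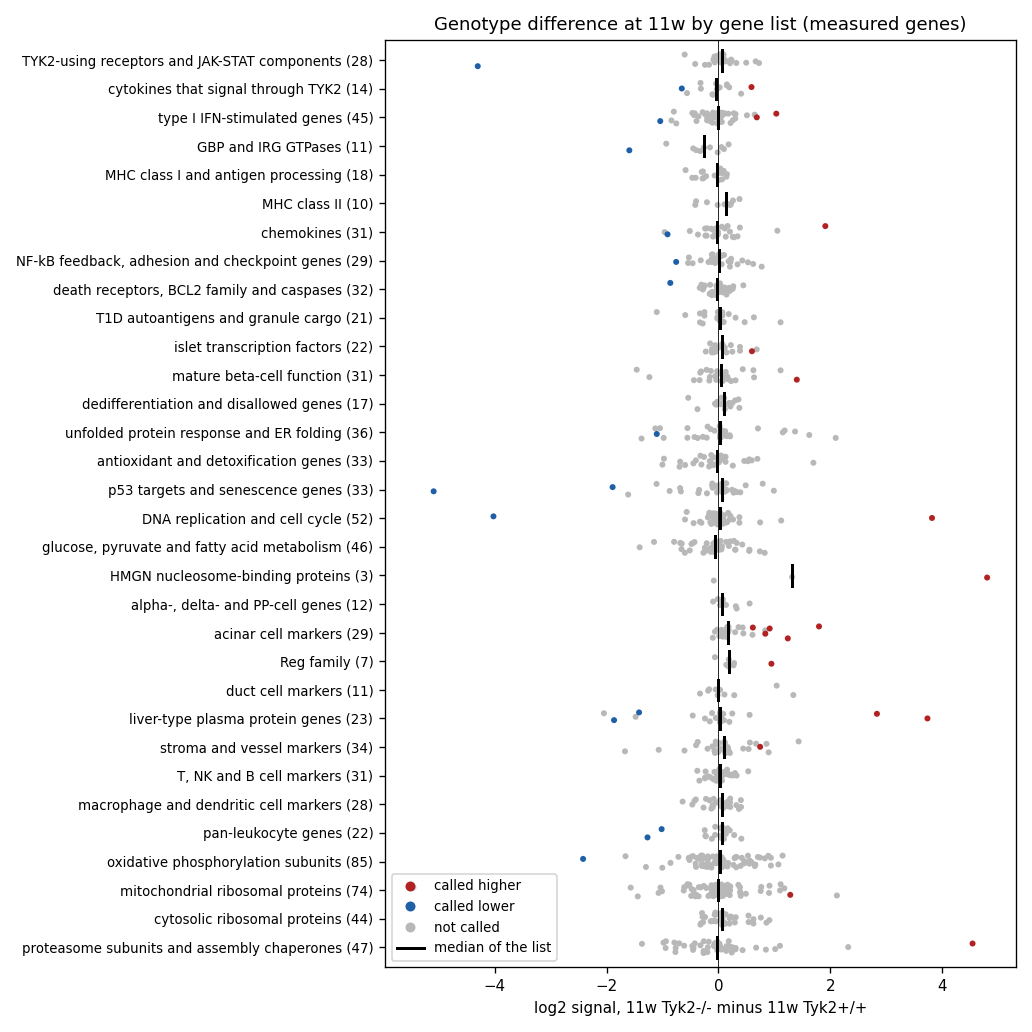
Each point is a measured gene of a list, placed by its log2 difference, 11w Tyk2-/- minus 11w Tyk2+/+, with called genes in red (higher) or blue (lower) and a black bar at the median of the list. The medians lie near 0 for most lists, at -0.26 for GBP and IRG GTPases, 0.17 for acinar cell markers and 1.32 for 3 HMGN genes, and single genes stand far from their list.

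The largest increases were spread over unrelated functions. Hmgn5, a nucleosome-binding protein that loosens chromatin, had 1061 in Tyk2-/- and 37.9 in Tyk2+/+ β-cells at 11w, against 206 in Tyk2-/- and 21.0 in Tyk2+/+ β-cells at 6w. Both Tyk2-/- arrays were above both Tyk2+/+ arrays, and Hmgn5 rose by 4.81 on the log2 scale. The related Hmgn3 had 1893 in Tyk2-/- and 759 in Tyk2+/+ β-cells at 11w (1.32, not called), against 2066 in Tyk2-/- and 2727 in Tyk2+/+ at 6w. Psmd10, a chaperone of proteasome assembly, had 649 in Tyk2-/- and 27.8 in Tyk2+/+ β-cells at 11w, against 977 in Tyk2-/- and 239 in Tyk2+/+ β-cells at 6w (rose by 4.55). Here too both Tyk2-/- signals were the higher, though the 6w difference was not called. Eef1e1, a scaffold of the aminoacyl-tRNA synthetase complex, had 579 in Tyk2-/- and 39.5 in Tyk2+/+ β-cells at 11w, against 391 in Tyk2-/- and 136 in Tyk2+/+ β-cells at 6w (rose by 3.88). Gins4, a subunit of the replicative helicase, had 1163 in Tyk2-/- and 82.3 in Tyk2+/+ β-cells at 11w, against 646 in Tyk2-/- and 300.8 in Tyk2+/+ β-cells at 6w (rose by 3.82).

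Other large increases rested on a low 11w Tyk2+/+ signal. Slitrk6, a neuronal membrane protein, had 6269 in Tyk2-/- and 533 in Tyk2+/+ β-cells at 11w, against 9298 in Tyk2-/- and 7392 in Tyk2+/+ β-cells at 6w (rose by 3.56). Eef1akmt1, a methyltransferase of elongation factor 1A, had 515 in Tyk2-/- and 51.8 in Tyk2+/+ β-cells at 11w, against 761 in Tyk2-/- and 568 in Tyk2+/+ β-cells at 6w (rose by 3.31). In both, 11w Tyk2+/+ was by far the lowest of the 4, as it was for Dnajc15, a mitochondrial co-chaperone with 1549 in Tyk2-/- and 159 in Tyk2+/+ β-cells at 11w (rose by 3.28). Apoa2, an apolipoprotein of liver, and Golph3l, a Golgi protein, were highest in 11w Tyk2-/- β-cells. Apoa2 had 288 in Tyk2-/- and 21.5 in Tyk2+/+ β-cells at 11w (at least 11.2-fold higher), and Golph3l had 243 in Tyk2-/- and 26.1 in Tyk2+/+ β-cells at 11w (rose by 3.22).

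The largest decreases included Mrpl42, a protein of the mitochondrial ribosome, with 56.4 in Tyk2-/- and 2469 in Tyk2+/+ β-cells at 11w, against 2152 in Tyk2-/- and 4624 in Tyk2+/+ β-cells at 6w. Mrpl42 fell by 5.45 on the log2 scale, and the 11w Tyk2-/- array alone was low. Zswim7 had 36.4 in Tyk2-/- and 348 in Tyk2+/+ β-cells at 11w, against 760 in Tyk2-/- and 395 in Tyk2+/+ β-cells at 6w (fell by 3.26). Tmem30b, a subunit of lipid flippases, had 30.9 in Tyk2-/- and 276 in Tyk2+/+ β-cells at 11w, against 383 in Tyk2-/- and 284 in Tyk2+/+ β-cells at 6w (fell by 3.16). These 3 share a low 11w Tyk2-/- signal beside 3 higher ones. In contrast, Polb, the polymerase of base excision repair, had 53.4 in Tyk2-/- and 868 in Tyk2+/+ β-cells at 11w, against 63.0 in Tyk2-/- and 131 in Tyk2+/+ β-cells at 6w (fell by 4.02), and Gabrg3, a GABA-A receptor subunit, had 12.8 in Tyk2-/- and 118 in Tyk2+/+ β-cells at 11w, against 11.1 in Tyk2-/- and 11.8 in Tyk2+/+ β-cells at 6w (at least 4.45-fold lower). In these the 11w Tyk2+/+ array was the high one. Zdhhc2, a palmitoyltransferase (fell by 3.63), Strn3, a striatin of phosphatase 2A complexes (fell by 3.19), and Ltv1, a factor of small ribosomal subunit export (fell by 2.95), had the lowest of the 4 signals in 11w Tyk2-/- and the highest in 11w Tyk2+/+ β-cells. Of these 20 genes, 4 lie on the X chromosome (Hmgn5, Psmd10, Bcap31 and Il13ra1). With predicted genes and small RNAs left out, X held 758 of 19251 genes. It also held 40 of the 622 such genes above the dim level that differed at least 2-fold. Its share of calls, 10 higher and 14 lower (3.17%), was the highest of any chromosome, beside 2.88% on chromosome 14 and 2.13% of all such genes. A link to X was not tested.

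**Figure D4:**
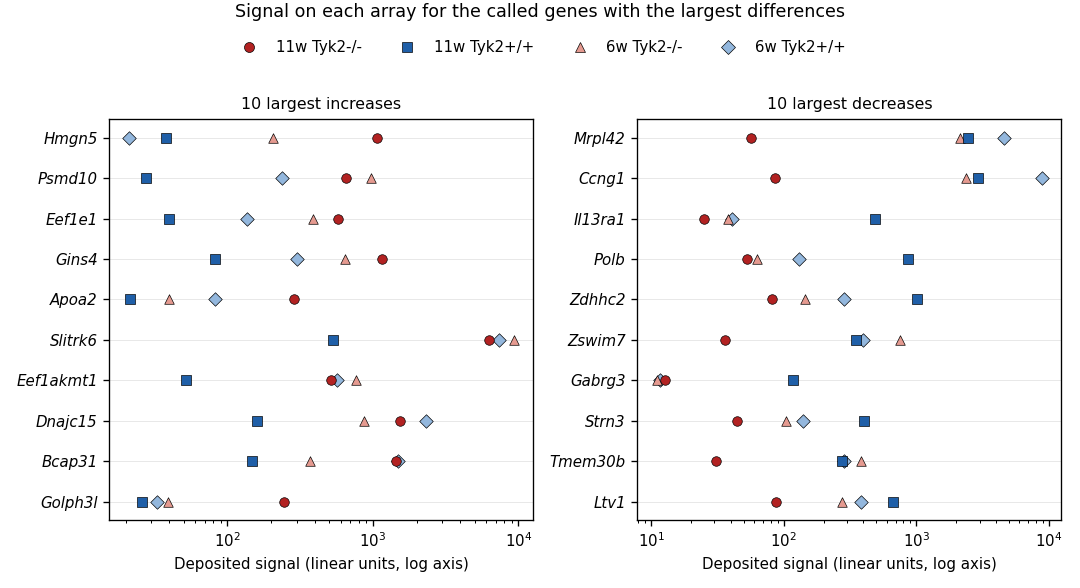
Signal on each of the 4 arrays (log axis) of the 10 called genes with the largest increases and the 10 with the largest decreases, predicted genes and small RNAs left out. The 11w Tyk2-/- signal (red circle) lies above the 11w Tyk2+/+ signal (blue square) on the left and below it on the right, while the paler 6w signals lie now with one and now with the other.

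The 11w signals of all called genes were placed against the range of the 6w arrays. These genes were selected for a gap between the 11w arrays, so their places on either side follow in part from that selection. The same count was not made over all genes, so no share stands beside the shares of calls outside that range. Of the 456 genes called higher, 215 (47.1%) had the 11w Tyk2-/- signal above that range and the 11w Tyk2+/+ signal below it, 118 (25.9%) had only the Tyk2-/- signal outside, above the range, and 53 (11.6%) had only the Tyk2+/+ signal outside, below it. Of the 406 called lower, 197 (48.5%) had the Tyk2-/- signal below and the Tyk2+/+ signal above the range, 76 (18.7%) had only the Tyk2+/+ signal outside, above it, and 39 (9.61%) only the Tyk2-/- signal, below it. At a distance of at least 4-fold from each of the other 3 arrays, 17 genes with ordinary symbols stood low and 3 high on the 11w Tyk2-/- array, and 16 stood low and 7 high on the 11w Tyk2+/+ array, against 2 low and 20 high on the 6w Tyk2-/- array and 0 low and 34 high on the 6w Tyk2+/+ array. The 17 low in 11w Tyk2-/- β-cells included Apoo, an organiser of mitochondrial cristae (557 in Tyk2-/- and 3070 in Tyk2+/+ β-cells at 11w, against 6604 in Tyk2-/- and 7850 in Tyk2+/+ at 6w). The 16 low in 11w Tyk2+/+ β-cells included Nucks1, a chromatin protein (2916 in Tyk2-/- and 676 in Tyk2+/+ β-cells at 11w, against 4134 in Tyk2-/- and 2966 in Tyk2+/+ at 6w).

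At high signal, 884 genes had at least 1000 on both 11w arrays. Of these 34 (3.85%) were at least 2-fold higher and 50 (5.66%) at least 2-fold lower in 11w Tyk2-/- β-cells, whatever their Z score. Rny3, a non-coding RNA bound by Ro60, was called higher, with 37639 in Tyk2-/- and 9291 in Tyk2+/+ β-cells at 11w, against 11648 in Tyk2-/- and 15152 in Tyk2+/+ β-cells at 6w (rose by 2.02). Atp5mpl, a subunit of ATP synthase, had 3252 in Tyk2-/- and 17411 in Tyk2+/+ β-cells at 11w, against 26908 in Tyk2-/- and 18849 in Tyk2+/+ β-cells at 6w (fell by 2.42). Hsbp1, a negative regulator of heat shock factor, had 5461 in Tyk2-/- and 22059 in Tyk2+/+ β-cells at 11w, against 33007 in Tyk2-/- and 35556 in Tyk2+/+ β-cells at 6w (fell by 2.01). For both of these the 11w Tyk2-/- array was low and the other 3 were similar. Ssr2, a subunit of the translocon-associated complex, fell by 1.76, a call lost with a narrower and with a wider window and after quantile normalization. Armcx3 (1.55), Cetn3 (1.45), Dpt (1.44), Dnajb9 (1.37) and Snrpg (1.35) had large differences that were not called, as had Sesn3 (-1.61), Shoc2 (-1.44) and Ndufb4b (-1.66). The pseudogenes Hmgb1-ps2 (fell by 1.82), Hmgb1-ps3 (fell by 1.79) and Rpl39-ps (1.65, not called) share sequence with their parent genes, so their values are uncertain.

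Several stress pathways held few calls. Of 33 p53 targets and senescence genes, 2 were called lower and none higher. The median was 0.06, but -0.20 for the 17 above the dim level. Ccng1, a cyclin that p53 induces, had 85.8 in Tyk2-/- and 2930 in Tyk2+/+ β-cells at 11w, against 2352 in Tyk2-/- and 8854 in Tyk2+/+ β-cells at 6w, and fell by 5.09. Cdkn1a, the cell cycle inhibitor p21, had 31.6 in Tyk2-/- and 117 in Tyk2+/+ β-cells at 11w, against 56.8 in Tyk2-/- and 74.1 in Tyk2+/+ β-cells at 6w. It fell by 1.89, a call lost with a narrower window. At each age both had the lower signal in the Tyk2-/- pool, and Sesn3, a sestrin, had the same order, with 3333 in Tyk2-/- and 10203 in Tyk2+/+ β-cells at 11w, against 32434 in Tyk2-/- and 62698 in Tyk2+/+ β-cells at 6w. In the same list Btg2 had 125 in Tyk2-/- and 63.1 in Tyk2+/+ β-cells at 11w (0.99) and Plk2 0.33, neither called. Among 52 replication and cell cycle genes, Gins4 and Polb were the only calls, and the bright Ccnd2 (-0.30) and Pcna (-0.13) were not called.

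The unfolded protein response answers misfolded protein in the endoplasmic reticulum (ER), a burden in insulin-making cells. Of its 36 measured genes only Atf3, a stress transcription factor, was called, with 19.1 in Tyk2-/- and 41.1 in Tyk2+/+ β-cells at 11w, at least 1.55-fold lower against the dim level. Of the 36, 5 were at least 2-fold higher and 4 at least 2-fold lower, at a median of 0.04. A 2-fold difference in either direction was found in 1073 of all 10346 genes above the dim level. By mean signal, it was found in 242 of 3659 genes at 30 to 60 and in 384 of 2305 at 60 to 200. It was found in 246 of 1050 genes at 200 to 1000 and in 109 of 942 above 1000. The median signal of the 36 was 64.2 in Tyk2-/- and 64.9 in Tyk2+/+ β-cells at 11w. Creld2, an ER chaperone, had 662 in Tyk2-/- and 155 in Tyk2+/+ β-cells at 11w, against 267 in Tyk2-/- and 895 in Tyk2+/+ β-cells at 6w (2.10), and Herpud1, of ER-associated degradation, had 150 in Tyk2-/- and 48.7 in Tyk2+/+ β-cells at 11w (1.63). Ddit3, the proapoptotic factor CHOP, had 96.7 in Tyk2-/- and 251 in Tyk2+/+ β-cells at 11w, against 221 in Tyk2-/- and 261 in Tyk2+/+ β-cells at 6w (-1.37), and Hspa5, the chaperone BiP, had 62.4 in Tyk2-/- and 123 in Tyk2+/+ β-cells at 11w (-0.98). None of these 4 was called, and they do not share a direction. Of 33 antioxidant genes none was called. Gstp1, a glutathione transferase, had 1441 in Tyk2-/- and 444 in Tyk2+/+ β-cells at 11w, against 1153 in Tyk2-/- and 1765 in Tyk2+/+ β-cells at 6w (1.70). Gstm1, of the same family, had 102 in Tyk2-/- and 203 in Tyk2+/+ β-cells at 11w, against 264 in Tyk2-/- and 102 in Tyk2+/+ at 6w.

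Genes of energy and protein metabolism were mostly bright. Of 85 subunits of oxidative phosphorylation, Atp5mpl alone was called, 45 differences were positive and 40 negative, and the median was 0.04. Of the 85, 74 in Tyk2-/- and 67 in Tyk2+/+ β-cells at 11w were below both 6w arrays. So were 40 in Tyk2-/- and 41 in Tyk2+/+ β-cells of 44 cytosolic ribosomal proteins, and 27 and 25 of 47 proteasome genes. The share of all genes in this place was not counted, so these counts do not show a trait particular to these lists. Of 74 mitochondrial ribosomal proteins, Mrpl43 was higher (at least 1.75-fold) and Mrpl42 lower (median -0.01). Mrpl2 had 610 in Tyk2-/- and 140 in Tyk2+/+ β-cells at 11w (2.12, not called). Of 47 proteasome subunits and assembly chaperones, Psmd10 was the only call (median -0.02), and the assembly chaperone Psmg2 had 919 in Tyk2-/- and 184 in Tyk2+/+ β-cells at 11w (2.32, not called). None of 44 cytosolic ribosomal proteins was called, at a median of 0.07 that equals the difference of the highest signals. None of 46 genes of glucose, pyruvate and fatty acid metabolism was called (median -0.06), with Pdk3, an inhibitor of pyruvate dehydrogenase, at -1.41 and Ogdh at 0.83.

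Genes of other cell types moved as well, and their part in the differences above was not tested. Of 29 acinar markers, digestive enzymes and granule proteins of the exocrine pancreas, 5 were called higher and none lower, 26 differences were positive, and the median was 0.17, against 2.86% called and a median of 0.01 over all genes. Their summed signal was 785 in Tyk2-/- and 583 in Tyk2+/+ β-cells at 11w, against 598 in Tyk2-/- and 652 in Tyk2+/+ β-cells at 6w. Clps, colipase, had 68.6 in Tyk2-/- and 19.7 in Tyk2+/+ β-cells at 11w (26.0 in Tyk2-/- and 39.5 in Tyk2+/+ at 6w), at least 2.67-fold higher. Against the dim level, Sycn was at least 1.30-fold, Gp2 at least 1.24-fold and Cela2a at least 1.09-fold higher, and Ctrl was under that level on both arrays. The calls of Gp2, Cela2a and Ctrl were lost with 1 SD over all features, with 16 added to each signal and with a 2-fold ratio alone, and that of Ctrl also after quantile normalization. The defining markers Cpa1 (14.9 in Tyk2-/- and 12.1 in Tyk2+/+ β-cells at 11w), Cel and Prss2 were under the dim level. All 7 genes of the Reg family were under it too, of which Reg2 was called higher.

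Of 31 T, NK and B cell markers none was called and none was above the dim level, and their summed signal was 497 in Tyk2-/- and 488 in Tyk2+/+ β-cells at 11w, against 468 in Tyk2-/- and 450 in Tyk2+/+ β-cells at 6w. Ptprc, which encodes CD45, had 15.9 in Tyk2-/- and 15.2 in Tyk2+/+ β-cells at 11w. None of 28 macrophage and dendritic cell markers was called (summed signal 655 in Tyk2-/- and 644 in Tyk2+/+ β-cells at 11w, against 546 in Tyk2-/- and 516 in Tyk2+/+ at 6w). Of 22 pan-leukocyte genes, 14 differences were positive and 8 negative, and the median was 0.06 (0.10 for the 6 above the dim level). Ptpn6, the phosphatase SHP-1, was called lower (at least 1.70-fold against the dim level). So was Cd48, a ligand of CD244 (at least 1.13-fold), whose call was lost with 16 added to each signal. Ptpn6 had 18.8 in Tyk2-/- and 45.2 in Tyk2+/+ β-cells at 11w, and Cd48 had 14.9 in Tyk2-/- and 30.03 in Tyk2+/+ β-cells at 11w, while all 4 of their 6w signals were under the dim level. In both, 11w Tyk2+/+ was the only array above the dim level.

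Of 34 stroma and vessel markers only Plvap was called (higher), at signals under the dim level on both arrays. Dcn, a matrix proteoglycan of fibroblasts, had 14256 in Tyk2-/- and 12360 in Tyk2+/+ β-cells at 11w, against 8375 in Tyk2-/- and 15275 in Tyk2+/+ β-cells at 6w (0.21). Dpt, dermatopontin, had 4756 in Tyk2-/- and 1758 in Tyk2+/+ β-cells at 11w, against 345 in Tyk2-/- and 2577 in Tyk2+/+ β-cells at 6w. Acta2, smooth muscle actin, had 37.4 in Tyk2-/- and 119 in Tyk2+/+ β-cells at 11w (-1.67, not called). Of 11 duct markers none was called, and the keratins Krt18 (251 in Tyk2-/- and 99.0 in Tyk2+/+ β-cells at 11w) and Krt8 (306 in Tyk2-/- and 149 in Tyk2+/+ β-cells at 11w) differed by 1.34 and 1.04. Plasma protein genes of liver type moved both ways: Apoa2 and Alb, albumin (209 in Tyk2-/- and 29.2 in Tyk2+/+ β-cells at 11w), rose, and Fgb, fibrinogen β (at least 2.68-fold), and Serpina1d, an α1-antitrypsin (at least 2.62-fold), were lower. Serpina1b had 150 in Tyk2-/- and 620 in Tyk2+/+ β-cells at 11w, against 25.3 in Tyk2-/- and 44.1 in Tyk2+/+ β-cells at 6w, a difference that was not called, and the Serpina1 paralogs are near-identical in sequence, so signal may be shared between them.

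Among 629 microRNA genes, 11 were called higher and 17 lower (4.45%), a share near the 4.14% of all predicted genes, small RNAs and receptor segments. The array measures total RNA over the locus, so a signal does not separate the hairpin from the mature form. The 4 with the largest decreases, chosen after their values were seen, are printed as RefSeq gives the mature forms (GRCm38.p6), with the seed, bases 2 to 8, in capitals, because the seed decides which transcripts a microRNA can pair with.
mmu-miR-1931: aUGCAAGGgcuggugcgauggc
mmu-miR-153-3p: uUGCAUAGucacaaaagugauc
mmu-miR-153-5p: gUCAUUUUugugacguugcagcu
mmu-miR-1938: cGGUGGGAcuuguaguucgguc
mmu-miR-1950: uCUGCAUCuaaggauaugguca
No pair of them shares a seed. Mir1931 had 8.24 in Tyk2-/- and 1583 in Tyk2+/+ β-cells at 11w, against 466 in Tyk2-/- and 1441 in Tyk2+/+ β-cells at 6w, at least 59.6-fold lower against the dim level. Mir153, which is hosted by the granule protein gene Ptprn2, had 15.6 in Tyk2-/- and 453 in Tyk2+/+ β-cells at 11w, against 108 in Tyk2-/- and 317 in Tyk2+/+ β-cells at 6w (at least 17.1-fold lower). For both, each Tyk2-/- array was lower than the Tyk2+/+ array of its age, and 11w Tyk2-/- was the lowest of the 4. Mir1938 had 8.84 in Tyk2-/- and 164 in Tyk2+/+ β-cells at 11w, against 6.48 in Tyk2-/- and 7.92 in Tyk2+/+ β-cells at 6w, so 11w Tyk2+/+ alone was high, as it was for Mir1950 (55.8 in Tyk2-/- and 865 in Tyk2+/+ β-cells at 11w, against 192 in Tyk2-/- and 126 in Tyk2+/+ at 6w). Ptprn2 itself had 165 in Tyk2-/- and 119 in Tyk2+/+ β-cells at 11w (0.47).

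The 6w arrays are of other pools, so the genotype difference at 6w shares no sample with that at 11w. Of the 223 genes above the dim level that were called higher at 11w, 14 (6.28%) were called higher and 16 (7.17%) lower at 6w, and of the 207 called lower, 15 (7.25%) were called lower and 9 (4.35%) higher at 6w. Among all 10346 genes above the dim level, 1.02% were called higher and 1.64% lower at 6w. Calls at both ages were thus about as often in opposite as in the same direction. With predicted genes and small RNAs left out, 8 genes above the dim level had the same call at both ages, named after their values were seen. Hmgn5, Birc2 and Anp32-ps were higher. Birc2, an inhibitor of apoptosis that regulates NF-κB and lies on chromosome 9, had 212 in Tyk2-/- and 35.1 in Tyk2+/+ β-cells at 11w, against 167 in Tyk2-/- and 25.5 in Tyk2+/+ β-cells at 6w, log2 differences of 2.60 and 2.71. Its signals fell into 2 groups by genotype at both ages. Ccng1, Ssr2, Zfp960, Mbip and Cyct were lower. Ssr2 had 4336 in Tyk2-/- and 14656 in Tyk2+/+ β-cells at 11w, against 5063 in Tyk2-/- and 14169 in Tyk2+/+ β-cells at 6w, so that it too was split by genotype. Mbip, a subunit of the ATAC acetyltransferase complex, had 24.4 in Tyk2-/- and 78.0 in Tyk2+/+ β-cells at 11w, against 25.6 in Tyk2-/- and 534 in Tyk2+/+ β-cells at 6w. Under the same filter, Bcap31, Nicn1 and Prim1 were called higher at 11w and lower at 6w, and Clec2d lower at 11w and higher at 6w. The widest difference of all was in a small nucleolar RNA, Snord61, with 43673 in Tyk2-/- and 10.6 in Tyk2+/+ β-cells at 11w, against 405 in Tyk2-/- and 8.14 in Tyk2+/+ β-cells at 6w.

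**Figure D5:**
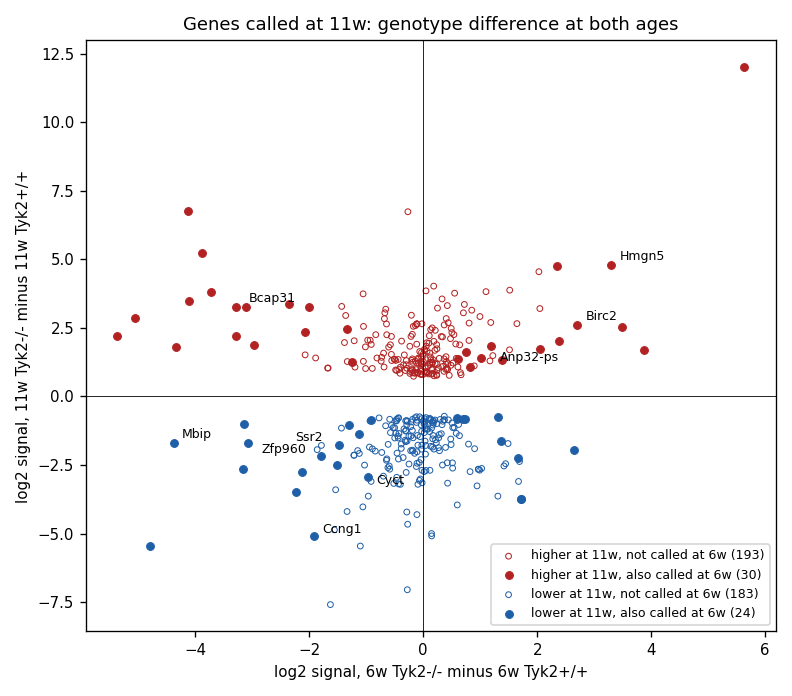
Each point is a gene called at 11w and above the dim level, with its log2 difference, Tyk2-/- minus Tyk2+/+, at 6w on the horizontal and at 11w on the vertical axis. Filled points were also called at 6w (30 of the 223 called higher at 11w and 24 of the 207 called lower), and they lie in all 4 quadrants.

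Because DNA near Tyk2 can stem from the strain of the knockout, the neighbours of the gene on chromosome 9 were counted. Among the 40 measured genes on each side of Tyk2, in the gene order of GRCm38.p6, 2 were called higher and 1 lower (3.75% of 80), and none of the nearest 10 on each side was called. The 3 were Olfr859 and Gm23316 (higher), at signals under the dim level on both arrays, and Zfp653, a zinc finger repressor. Zfp653 was at least 1.25-fold lower, with 18.3 in Tyk2-/- and 33.2 in Tyk2+/+ β-cells at 11w. All 3 calls were lost with 1 SD over all features, with 16 added to each signal and with a 2-fold ratio alone. With predicted genes and small RNAs left out, chromosome 9 as a whole had 18 higher and 10 lower calls among 1089 genes (2.57%). The share of all such genes was 2.13%, and chromosomes ranged from 0.694% (chromosome 4) to 3.17% (X). The counts of neighbours kept predicted genes and small RNAs, for which the share of all genes was 2.86%. Many of the 80 are odorant receptor (Olfr) genes, and of all odorant, pheromone and taste receptor genes 6.16% were called.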

How the data were processed

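Biotin-labelled total RNA of sorted β-cells was hybridised to Affymetrix Clariom D mouse arrays (GeneChip WT Pico kit), 1 pool per condition. The authors deposited normalized signal intensities on a linear scale, made with Affymetrix Expression Console per the submitters' processing notes. Its version and the background correction are not given in the sources used here. The arrays' number, 1 per condition, limits the precision. Of 65956 features, 30638 had 1 gene symbol in the platform table, 2176 several and 33142 none, and 22596 were matched to RefSeq (GRCm38.p6), with 0 symbols changed. Of 354 genes with several features the brightest was kept. Python 3.11.15 with NumPy 2.4.6 and pandas 2.3.3 gave the log2 differences, and matplotlib 3.10.9 drew them. The methods print the ratio limits of 1.5 and 0.66 with reversed signs, and they were taken in their plain sense. The calculation was tested on simulated data.

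The comparison, the gene lists and the alternatives were chosen with earlier results of these data known. Named genes are Tyk2, the 10 largest increases and 10 largest decreases among calls above the dim level, the 8 extremes in each direction at signals of at least 1000 on both arrays (predicted genes and small RNAs left out of both), the genes the study names for these arrays (19 of 20 measured), up to 6 called members of each list or else its extremes, and called neighbours of Tyk2. Other genes, among them further list members, microRNAs and genes called at both ages, were named after their values were seen. The 10 alternatives varied the window or SD of the Z score, scaling, dim filter, call rule, added 16 to the signal, averaged a gene's features or left out features at the highest signal.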

Additional observations from a re-analysis of the deposited data

Results flagged for a closer look

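Bcap31, which encodes an ER protein that sorts membrane proteins for export and degradation, was called in opposite directions at the 2 ages. It had 1436 in Tyk2-/- and 148 in Tyk2+/+ β-cells at 11w, against 371 in Tyk2-/- and 1493 in Tyk2+/+ β-cells at 6w. On the log2 scale Bcap31 rose by 3.28 at 11w, while its 6w difference (Tyk2-/- minus Tyk2+/+) was -2.01. Thus 11w Tyk2-/- and 6w Tyk2+/+ β-cells were alike and the other 2 pools were lower. The difference between the ages was not tested, since each value rests on 1 array per genotype.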

How the results depend on the processing

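The 456 higher and 406 lower calls became 195 and 162 with 16 added to each signal, and 277 and 251 among genes at or above the median mean signal. The other 8 alternatives gave 404 to 620 higher and 404 to 477 lower calls, but with 1 SD over all features only 194 of 613 higher and 171 of 469 lower calls were shared with those reported, and with a 2-fold ratio alone 194 of 620 and 173 of 477. Of 56 named genes that were called, 34 kept their call under every alternative that measured them, and no called gene changed direction. Gbp2, Rtp4, Il13ra1, Hmgn5, Mrpl42 and Ccng1 were among those 34. Fas, Ccl7 and Tnfaip3 lost their calls with 1 SD over all features, with 16 added and with the 2-fold rule. The median of MHC class II was 0.13 as reported and -0.048 among genes at or above the median mean signal, where fewer of its genes were measured. No array could be left out and no paired analysis was possible, because each condition has 1 array. The depth of an array cannot be given, and near the dim level a signal holds background, so the falls of Gbp2 and Fas are given as bounds.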
